A study of Rattus norvegicus with 12 samples.

Results

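DEAD-box and DEAH-box proteins are enzymes that use ATP to unwind RNA duplexes or to strip proteins from RNA, and they are named after a short amino-acid motif in their ATPase core. Different members serve ribosome assembly in the nucleolus, pre-mRNA splicing, export of mRNA through the nuclear pore, translation, mRNA decay and the sensing of viral RNA. In neurons, several of them are also known as components of RNA granules. Their transcripts were examined here in the prefrontal cortex of rat pups. A gene was included when a non-control probe on the array carried a gene name that began with Ddx or Dhx and a digit. This gave 45 genes with 50 probes, out of 26202 gene names and 30367 probes on the array. Ddx56 and Dhx9 were picked out beforehand because they differed in opposite directions between betamethasone and control cortex, so their values in that comparison are given as a description.

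The tissue was taken on postnatal day 15 from female pups of the Sprague-Dawley strain, although 1 label field gives another stage. The labels give 3 groups of 4 samples, and all dams were injected on gestational day 15. Betamethasone-ketamine pups came from dams given 2 injections of betamethasone, a synthetic glucocorticoid, at 0.4 mg/kg each, and received ketamine, an NMDA receptor blocker, at 35 mg/kg on postnatal day 14. Betamethasone pups had the same prenatal injections and saline on postnatal day 14. Control pups had saline at both ages. The labels state that ketamine or saline went to pups with infantile spasms, litters were reduced to 4 females, and neither the litter nor the spasm status of a sample is given, so the p-values measure only the spread between these samples. Each of 6 two-colour arrays carried 2 samples of 1 group. The comparisons address what prenatal betamethasone, with or without later ketamine, does to transcripts of the cortex, and what ketamine adds after betamethasone.

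The control arrays were alone on 1 slide and the other 4 arrays shared the second slide, so slide and treatment cannot be told apart in either comparison with control. The slope of observed on expected log ratios of the spike-in controls, a quality value in the file headers, was 0.87 to 0.88 on the betamethasone-ketamine and betamethasone arrays, against 0.49 and 0.54 on the control arrays, and its part in the differences from control was not tested. Between 71.4% and 81.5% of the spots of a sample were well above background, and 88% to 96% of the helicase probes were. All values below are normalized log2 intensities of a probe, in which 1 unit is a doubling. The number of arrays, 2 in each group, limited the precision: the median standard error of a helicase gene's log2 change was 0.14, against 0.15 over all 18654 genes tested. Of 9 neuron markers 8 were tested, and all 8 were well above background in every sample. The summed signal of 3 of 4 endothelial markers, on the log2 scale, was 12.59 to 13.05 in betamethasone-ketamine cortex, 12.53 to 12.76 in betamethasone cortex and 11.48 to 12.47 in control cortex, and thus lay above control in both comparisons. Singly, the log2 difference of betamethasone minus control was 0.61 for Cldn5, 0.19 for Pecam1 and 0.08 for Flt1. None of them was called in either comparison with control. The summed signal of 5 astrocyte markers was 15.84 to 16.24 in betamethasone-ketamine cortex, 15.84 to 15.87 in betamethasone cortex and 15.94 to 16.24 in control cortex, so that betamethasone cortex lay below control without overlap. Such a sum weights bright markers most, and singly these markers did not share a direction in betamethasone minus control. The log2 difference was 0.50 for Gfap, against -0.61 for Aldh1l1, -0.24 for Slc1a3, -0.15 for Aqp4 and -0.07 for Gja1, and none was called. The summed signal of 5 microglia markers was 14.15 to 14.32 in betamethasone-ketamine cortex, 14.17 to 14.23 in betamethasone cortex and 13.90 to 14.18 in control cortex, with overlap. All markers tested for these cell types were well above background in every sample, and the part of such cells in the helicase values was not tested. The summed signal of 5 oligodendrocyte markers was 14.91 to 16.05, 14.34 to 15.61 and 15.24 to 16.36 in betamethasone-ketamine, betamethasone and control cortex, and that of 2 erythrocyte markers 12.11 to 17.25, 16.01 to 17.60 and 16.08 to 16.78, with overlap in every case. In tissue RNA, fewer cells of a type and less RNA per cell cannot be told apart.

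Of the 45 genes, 40 could be tested in all 3 comparisons. Ddx4, the germ-cell helicase Vasa, and Dhx32 were not well above background in any sample, and Ddx60, an antiviral helicase, only in 2 betamethasone-ketamine samples. Ddx5 and Ddx54 were well above background in every sample, but the spots of betamethasone replicates 3 and 4 were marked as outliers by the scanner software, which left only 2 betamethasone values. Of the 40 tested genes, 37 were well above background in all 12 samples. Ddx18 and Ddx31 missed this in 1 control sample each, and Dhx33 was above background in 3 betamethasone-ketamine, 2 betamethasone and 2 control samples.

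The 2 helicase genes with the largest differences from control were measured by 1 probe each, shown here because the description turns on them. The Ddx56 probe lies on chromosome 14 (rn4, chr14:86986090-86986149, minus strand) and the Dhx9 probe on chromosome 13 (rn4, chr13:68471664-68471723, minus strand), both 60 bases long with no gap in the genome. Exon and UTR annotation of rn4 was not used here.
Ddx56 probe: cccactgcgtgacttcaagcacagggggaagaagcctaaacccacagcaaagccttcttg
Dhx9 probe: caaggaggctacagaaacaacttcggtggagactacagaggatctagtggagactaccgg

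Ddx56 encodes a nucleolar helicase of large ribosomal subunit assembly. Its level was 10.92, 10.99, 11.42 and 11.27 in betamethasone-ketamine replicates 1 to 4. In betamethasone cortex it was 11.40, 11.30, 11.31 and 11.29, and in control cortex 10.38, 10.38, 10.42 and 10.46. Every sample of both betamethasone-exposed groups was above every control sample. The log2 difference was 0.74 ± 0.12 (SE) between betamethasone-ketamine and control cortex and 0.92 ± 0.12 between betamethasone and control cortex, which is 1.67-fold and 1.89-fold. These 2 differences share the control samples. The spots of control replicates 1 and 2 lay in an area of their array where neighbouring spots departed together from the other arrays. Without that array, the log2 differences were 0.72 for betamethasone-ketamine and 0.89 for betamethasone cortex.

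Dhx9 encodes RNA helicase A, which unwinds RNA and RNA-DNA hybrids and acts in transcription and RNA processing. Its level was 9.64, 9.67, 9.88 and 9.54 in betamethasone-ketamine cortex. It was 9.52, 9.59, 9.68 and 9.64 in betamethasone cortex, against 10.34, 10.58, 10.64 and 10.64 in control cortex. All 8 samples of the betamethasone-exposed groups were below all 4 control samples. The log2 difference from control was -0.87 ± 0.15 (SE) in betamethasone-ketamine cortex and -0.94 ± 0.15 in betamethasone cortex, or 0.548 and 0.52 of the control level. Between the groups that share a slide, betamethasone-ketamine minus betamethasone, the log2 difference was -0.17 ± 0.12 for Ddx56 and 0.08 ± 0.15 for Dhx9. The samples of these groups overlapped for both genes. The betamethasone samples are among those by which both genes were chosen, so these differences are not independent of that choice.

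**Figure D1:**
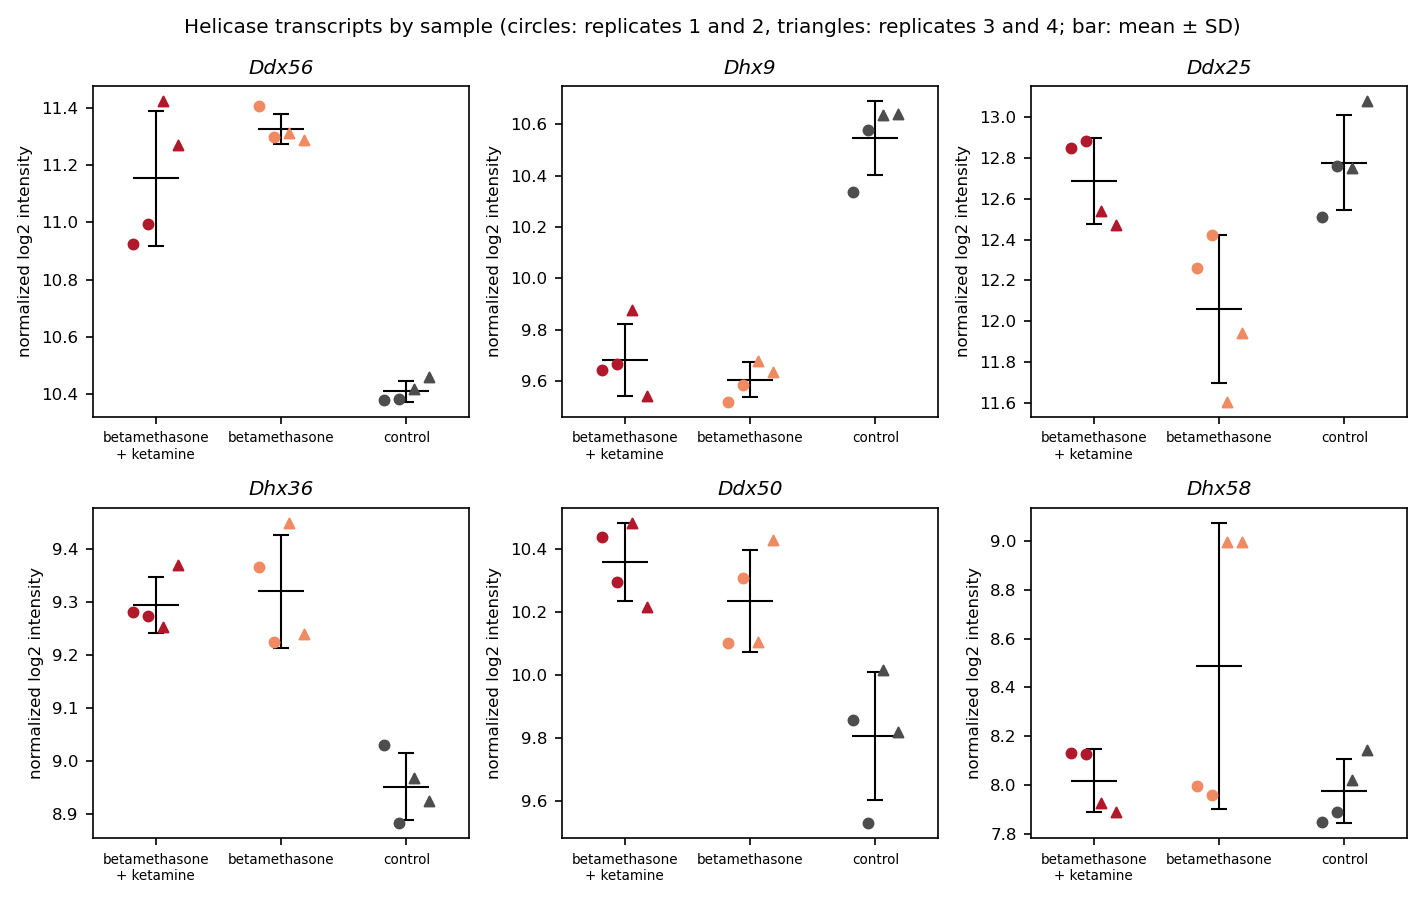
Normalized log2 intensity (vertical axes) of 6 helicase genes in each sample, with betamethasone-ketamine, betamethasone and control cortex from left to right. Circles are replicates 1 and 2 and triangles are replicates 3 and 4, which were on separate arrays, and bars are the mean ± SD of 4 samples. Ddx56 was 10.92 or more in all betamethasone-exposed samples and 10.46 or less in control, Dhx9 was 9.88 or less against 10.34 or more, and Dhx58 stood at 8.997 in only 2 betamethasone samples.

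Ddx56 and Dhx9 were chosen for their difference in betamethasone minus control, and the helicases are described there without a test. These 2 of 40 genes were past an adjusted p of 0.05 in limma, beside 0.247% of all genes tested, a count that their choice fixes and that supports nothing about the helicases. No helicase gene was past it without control replicate 1 or 3, without any 1 betamethasone replicate, or without either betamethasone array, and 1 (Ddx56) without control replicate 2, where 3 to 41 of all genes were, against 46 with every sample. The samples of the groups did not overlap for 10 of the 40, against 18% of all genes: 6 were higher in betamethasone cortex, against 10.6% of all genes, and 4 lower, against 7.4%. The higher ones were Ddx56, Ddx50 (log2 difference 0.43), Dhx36 (0.37), Ddx28 (0.35), Ddx41 (0.31) and Ddx47 (0.30). The lower ones were Dhx9, Ddx25 (-0.72), Ddx3x (-0.39) and Dhx15 (-0.30). The helicases as a whole showed no common direction: 24 differences were above 0, against 56% of all genes, and 16 below, and their median was 0.05, against 0.03 for all genes.

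In betamethasone-ketamine minus control, limma called 0 of 40 helicase genes at an adjusted p under 0.05, against 0.0911% of all genes tested. At an unadjusted p under 0.05 there were 8 of 40, against 14.1% of all genes: Ddx56, Dhx9, Dhx36, Ddx50, Ddx28, Ddx41, Ddx39a and Ddx19a. The samples of the groups did not overlap for 10 of 40 genes, against 15.8% of all genes. Of these, 9 were higher in betamethasone-ketamine cortex, against 12.1% of all genes, and 1, Dhx9, was lower, against 3.73%. Of the log2 differences 27 were above 0 and 13 below, with a median of 0.13, against 0.07 for all genes and 63.8% of all genes above 0. The control samples are the same as in betamethasone minus control, where Ddx56 and Dhx9 were chosen. The place of these genes in the counts above and in the calls below is thus partly fixed by that choice and supports nothing. Without betamethasone-ketamine replicate 1, Ddx56 was called (27 of all genes), and without replicate 3, Dhx9 (18 of all genes), against 17 of all genes with every sample. Without the array of control replicates 1 and 2, Dhx9 was called (210 of all genes), and without that of replicates 3 and 4, Ddx56 (357 of all genes). The calls thus rose over all genes when 1 array stood for the control group.

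Helicases of ribosome assembly formed the largest group, with 14 genes on the array and 13 tested. In betamethasone-ketamine minus control 9 differences were above 0 and 4 below, with a median of 0.16 and 0 called. Ddx50 and Ddx21 encode the paralogous nucleolar Gu helicases, and their probes lie near each other on chromosome 20 (rn4, chr20:29873253-29873312 and chr20:29838773-29838832, both minus strand). The Ddx50 level was 10.44, 10.29, 10.48 and 10.22 in betamethasone-ketamine cortex, 10.10, 10.31, 10.10 and 10.43 in betamethasone cortex, and 9.86, 9.53, 10.02 and 9.82 in control cortex. No sample of the exposed groups was as low as any control sample. The log2 difference between betamethasone-ketamine and control cortex was 0.55 ± 0.19 (SE), with an adjusted p of 0.301 in limma. The Ddx21 level was 10.94, 10.88, 11.14 and 11.01 in betamethasone-ketamine cortex, 11.12, 11.01, 10.75 and 10.76 in betamethasone cortex, and 11.57, 11.61, 11.27 and 10.95 in control cortex. The lowest control sample overlapped with both exposed groups. The log2 difference was -0.36 ± 0.17 for betamethasone-ketamine and -0.44 ± 0.17 for betamethasone, each minus control, and the adjusted p of the first was 0.368. Without the array of control replicates 1 and 2 they were -0.116 and -0.199, and without that of control replicates 3 and 4 they were -0.60 and -0.68. The Ddx21 spots of betamethasone replicates 3 and 4 lay in an area of departing spots, and without that array the betamethasone value was -0.28.

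The other ribosome-assembly helicases differed less. Ddx47, which acts in small-subunit rRNA processing, was 8.45 to 8.55 in betamethasone-ketamine cortex and 8.44 to 8.71 in betamethasone cortex, against 8.12 to 8.41 in control cortex. The groups did not overlap, but the log2 difference of betamethasone-ketamine minus control was only 0.21 ± 0.12 (adjusted p = 0.435). Ddx49, Ddx18, Ddx24, Ddx31, Ddx51, Ddx52, Ddx10 and Dhx33 had log2 differences from -0.11 to 0.22 in betamethasone-ketamine minus control and overlapped with control in each case.

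Splicing helicases open and release the RNA duplexes of the spliceosome. Of 12 on the array 11 were tested, and in betamethasone-ketamine minus control 9 differences were above 0, with a median of 0.17 and 0 called. Ddx39a, a paralog of the mRNA export factor Ddx39b, was 9.74, 9.85, 9.33 and 9.46 in betamethasone-ketamine cortex, 9.25, 9.56, 9.39 and 9.65 in betamethasone cortex, and 9.24, 9.18, 9.27 and 9.30 in control cortex. The betamethasone-ketamine samples were all above control, by 0.35 ± 0.14 (SE, adjusted p = 0.332), and the higher 2 came from 1 array. Ddx39b ran from 10.87 to 11.43 in betamethasone-ketamine cortex and from 10.20 to 11.25 in control cortex, the widest control spread of the 40 genes (SD 0.45). Dhx15, which helps to take the spliceosome apart, was 11.72, 11.42, 11.11 and 11.20 in betamethasone-ketamine cortex, 11.07, 11.09, 11.06 and 11.21 in betamethasone cortex, and 11.48, 11.45, 11.38 and 11.31 in control cortex. All betamethasone samples lay below the control samples, while the betamethasone-ketamine samples lay above, within and below the control range. The Dhx15 value is the mean of 10 spots, and in control replicates 1 and 2 some or all of them lay in an area of departing spots. Dhx8, Dhx16 and Dhx38, which drive successive spliceosome rearrangements, had log2 differences of 0.30, 0.07 and -0.14 in betamethasone-ketamine minus control. Dhx35 was 9.09, 9.30, 9.41 and 9.71 in betamethasone-ketamine cortex, 9.52, 9.74, 9.36 and 9.65 in betamethasone cortex and 9.23, 9.502, 9.04 and 9.32 in control cortex, with overlap in every comparison.

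Among 7 helicases of mRNA export, translation and decay, 6 were tested, and their betamethasone-ketamine minus control differences had a median of 0.05, with 3 above 0 and 0 called. Dhx36 resolves G-quadruplex structures in RNA and DNA. Its level was 9.28, 9.27, 9.25 and 9.37 in betamethasone-ketamine cortex and 9.37, 9.22, 9.45 and 9.24 in betamethasone cortex, against 9.03, 8.88, 8.97 and 8.93 in control cortex. All 8 exposed samples were above all 4 control samples, and the log2 difference of betamethasone-ketamine minus control was 0.34 ± 0.10 (SE), or 1.27-fold, with an adjusted p of 0.247 in limma. Ddx19a, which remodels mRNA-protein complexes at the nuclear pore, was 9.51, 9.46, 9.07 and 8.90 in betamethasone-ketamine cortex, 9.10, 9.08, 9.17 and 9.01 in betamethasone cortex, and 8.95, 8.68, 9.05 and 8.92 in control cortex. Its log2 difference of 0.33 ± 0.14 between betamethasone-ketamine and control cortex had an adjusted p of 0.338. Replicates 1 and 2 were above all control samples, while replicates 3 and 4 lay within or next to the control range. Its close relative Ddx19b was 7.88 to 8.04 in betamethasone-ketamine cortex and 7.81 to 7.85 in control cortex. Ddx6, a helicase of processing bodies, was 11.75 to 11.85 in betamethasone-ketamine cortex, 11.65 to 11.90 in betamethasone cortex and 11.46 to 12.04 in control cortex, so that the exposed groups lay inside the control range.

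Of the remaining roles, the mitochondrial helicase Ddx28, which acts in mitochondrial ribosome assembly, was 8.88, 8.82, 8.59 and 8.53 in betamethasone-ketamine cortex, 8.60, 8.68, 8.69 and 8.67 in betamethasone cortex, and 8.45, 8.04, 8.43 and 8.33 in control cortex. No sample overlapped with control, and the log2 difference of betamethasone-ketamine minus control was 0.39 ± 0.15 (SE, adjusted p = 0.312). Dhx30, which binds mitochondrial RNA, was 13.34, 13.40, 13.78 and 13.97 in betamethasone-ketamine cortex, 13.94, 13.94, 13.92 and 13.81 in betamethasone cortex, and 14.06, 14.13, 13.73 and 13.68 in control cortex, so that the 2 arrays of the betamethasone-ketamine group and those of the control group each stood apart. Ddx20, a component of the SMN complex that assembles spliceosomal snRNPs, was 9.33 to 9.56 in betamethasone-ketamine cortex, 9.497 to 9.61 in betamethasone cortex and 9.49 to 9.82 in control cortex, and the log2 difference of betamethasone-ketamine minus control was -0.22 ± 0.11 (adjusted p = 0.383). Its value is the mean of 10 spots, and some or all of them lay in an area of departing spots on the array of betamethasone-ketamine replicates 1 and 2. Ddx59 was 8.86 to 8.99 in betamethasone-ketamine cortex and 8.54 to 8.77 in control cortex, a log2 difference of 0.22 ± 0.11 (adjusted p = 0.388). Dhx40 and Dhx57, in none of the role groups, differed by 0.15 and 0.22 and overlapped with control.

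**Figure D2:**
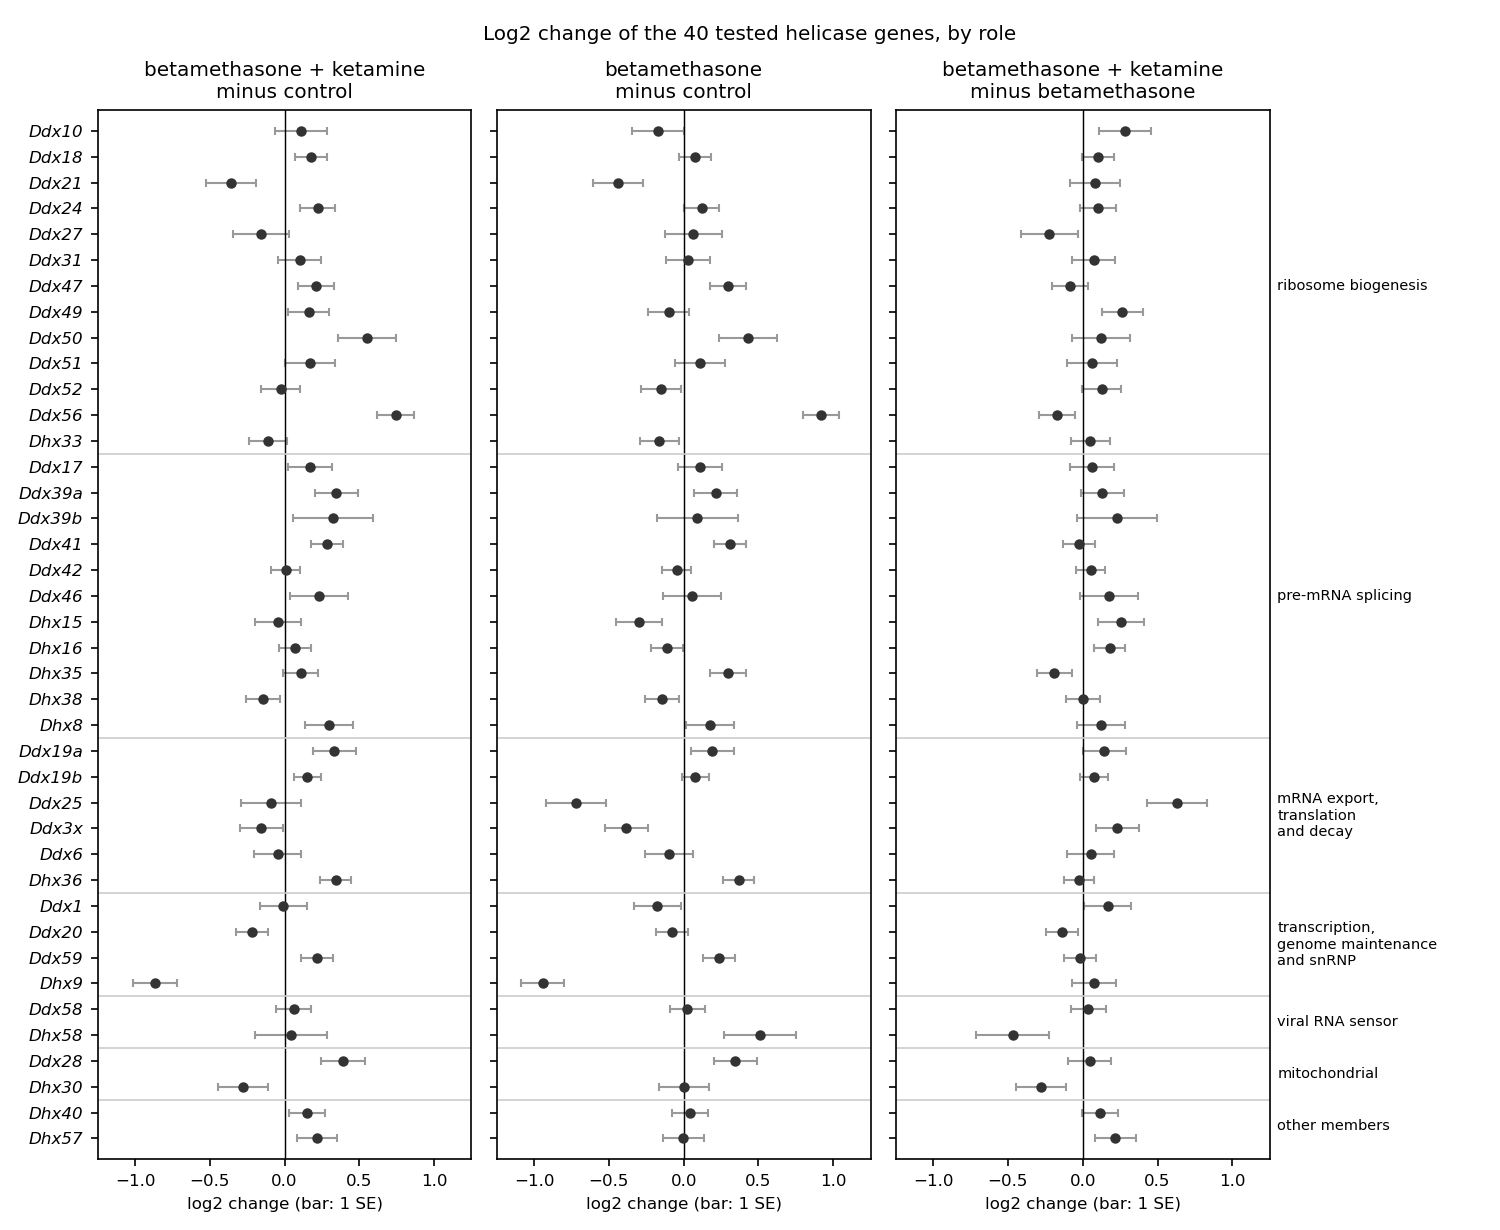
Log2 change (horizontal axes) of the 40 tested helicase genes, grouped by role down the page, for betamethasone-ketamine minus control, betamethasone minus control, and betamethasone-ketamine minus betamethasone. Points are limma estimates and bars are 1 SE. Ddx56 (0.74 and 0.92) and Dhx9 (-0.87 and -0.94) lie farthest from 0 in both comparisons with control, and Ddx25 (0.63) in betamethasone-ketamine minus betamethasone.

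Betamethasone-ketamine and betamethasone cortex were measured on the same slide. Limma called 0 of 40 helicase genes at an adjusted p under 0.05, against 0% of all genes tested. At an unadjusted p under 0.05 there was 1 of 40, Ddx25, against 3.23% of all genes. The groups did not overlap for Ddx25 and Ddx1, against 4.06% of all genes, and both were higher in betamethasone-ketamine cortex, against 2.76% of all genes. Of the log2 differences 30 were above 0 and 10 below, with a median of 0.08, against 0.05 and 62.9% above 0 for all genes. That direction turned with the scaling: after loess with equal array medians the helicase median was -0.13 and that of all genes -0.10.

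Ddx25 encodes the gonadotropin-regulated testicular helicase, known from rat and mouse testis for mRNA export and translation in male germ cells. Its probe lies on chromosome 8 (rn4, chr8:35326993-35327052, minus strand) and was well above background in all 12 samples. Its level was 12.85, 12.88, 12.54 and 12.47 in betamethasone-ketamine cortex, against 12.26, 12.42, 11.60 and 11.94 in betamethasone cortex. In control cortex it was 12.51, 12.76, 12.75 and 13.08. All betamethasone-ketamine samples lay above all betamethasone samples and inside or next to the control range. The log2 difference of betamethasone-ketamine minus betamethasone was 0.63 ± 0.20 (SE), a 1.55-fold level, with a 95% interval of 0.18 to 1.07 and an adjusted p of 0.907 in limma. The size moved with the arrays: it was 0.34 without the array of betamethasone replicates 3 and 4, 0.91 without that of betamethasone replicates 1 and 2, and 0.10 after loess with equal array medians. Without the array of betamethasone-ketamine replicates 3 and 4 it was 0.81 and was called (adjusted p = 0.042 in limma). The group then rested on 1 array, and 2288 of all genes were called, against 0 with every sample. Without the array of betamethasone-ketamine replicates 1 and 2 the Ddx25 difference was 0.45. Against control, the log2 difference was -0.09 ± 0.20 for betamethasone-ketamine cortex and -0.72 ± 0.20 for betamethasone cortex.

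Ddx1, a helicase of RNA transport granules and of the tRNA ligase complex, was 11.97, 11.89, 11.93 and 11.96 in betamethasone-ketamine cortex, against 11.75, 11.80, 11.71 and 11.83 in betamethasone cortex. These groups stood apart by a small step, 0.17 ± 0.16 (SE, adjusted p = 0.907), and the control samples, 12.16, 11.80, 11.77 and 12.06, overlapped with each of them. Dhx58 encodes LGP2, a regulator of the viral RNA sensors RIG-I and MDA5. It was 8.13, 8.13, 7.92 and 7.89 in betamethasone-ketamine cortex, 8.00, 7.96, 8.997 and 8.997 in betamethasone cortex, and 7.85, 7.89, 8.02 and 8.14 in control cortex. The high values were the 2 betamethasone samples of 1 array, and without that array the log2 difference of betamethasone-ketamine minus betamethasone was 0.04, against -0.47 ± 0.24 with it (adjusted p = 0.907). Ddx58, which encodes RIG-I itself, was 7.75 to 7.99 in betamethasone-ketamine cortex, 7.73 to 7.95 in betamethasone cortex and 7.76 to 7.92 in control cortex, with overlap throughout.

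The other genes with the smallest p-values between betamethasone-ketamine and betamethasone cortex had an adjusted p of 0.907 each. They were Ddx49 (log2 difference 0.26 ± 0.14, SE), Dhx16 (0.18 ± 0.11), Dhx30 (-0.28 ± 0.17), Dhx15 (0.25 ± 0.15), Ddx10 (0.28 ± 0.17), Dhx57 (0.22 ± 0.14), Dhx35 (-0.19 ± 0.12) and Ddx3x (0.23 ± 0.14). Ddx10, a ribosome-assembly helicase, is an example of how the arrays of the betamethasone-ketamine group differed. It was 10.56 and 10.40 in betamethasone-ketamine replicates 1 and 2 and 9.90 and 9.86 in replicates 3 and 4, against 9.83 to 9.99 in betamethasone cortex.

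That array difference ran through the helicases. The median helicase gene stood 0.20 above its control mean in betamethasone-ketamine replicates 1 and 2, and 0.04 in replicates 3 and 4, while all genes tested stood at 0.11 and 0.12, and at 0.03 and 0.04. In betamethasone cortex the helicase median was -0.03 to 0.07. Of all spots, 5.96% lay in areas of departing spots on the array of betamethasone-ketamine replicates 1 and 2, and 0.135% to 1.97% on the other arrays. The typical helicase gene differed by 0.19 between the 2 betamethasone-ketamine arrays, 0.06 between the betamethasone arrays and 0.13 between the control arrays, close to the 0.20, 0.06 and 0.15 of all genes. When the array of betamethasone-ketamine replicates 3 and 4 was left out, so that 1 array stood for the group, 10 helicase genes were called in betamethasone-ketamine minus control (Ddx10, Ddx19a, Ddx28, Ddx39a, Ddx56, Dhx9, Dhx30, Dhx36, Dhx40 and Dhx57) and 8 in betamethasone-ketamine minus betamethasone (Ddx3x, Ddx10, Ddx19a, Ddx25, Ddx56, Dhx15, Dhx30 and Dhx35). Of all genes, 3102 and 2288 were then called, and the lone array was assumed to vary like the others. Without the array of replicates 1 and 2, the helicase counts were 1 (Ddx56) and 0, and 100 and 26 of all genes were called.

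**Figure D3:**
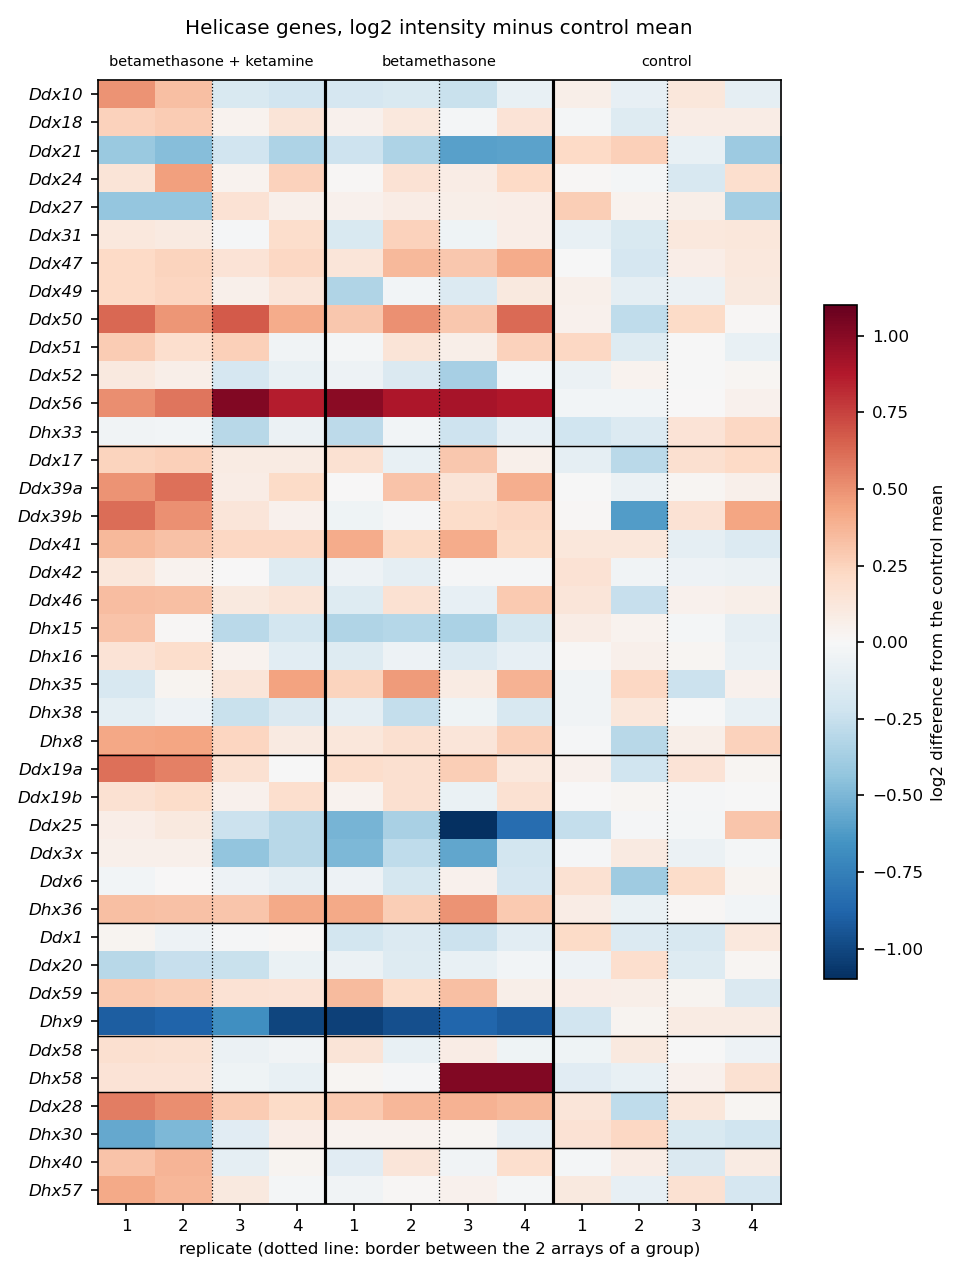
Log2 intensity of the 40 tested helicase genes in each sample minus the mean of the 4 control samples (colour, red above and blue below), with genes down the page by role and samples across by group, betamethasone-ketamine first and control last. Dotted lines part the 2 arrays of a group. Ddx56 and Dhx9 keep 1 colour through all 8 exposed samples, as do others such as Dhx36, Ddx50, Ddx28 and Dhx38. Ddx10, Ddx19a, Ddx27 and Dhx30 differ in shade or colour between the betamethasone-ketamine arrays.

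**Figure D4:**
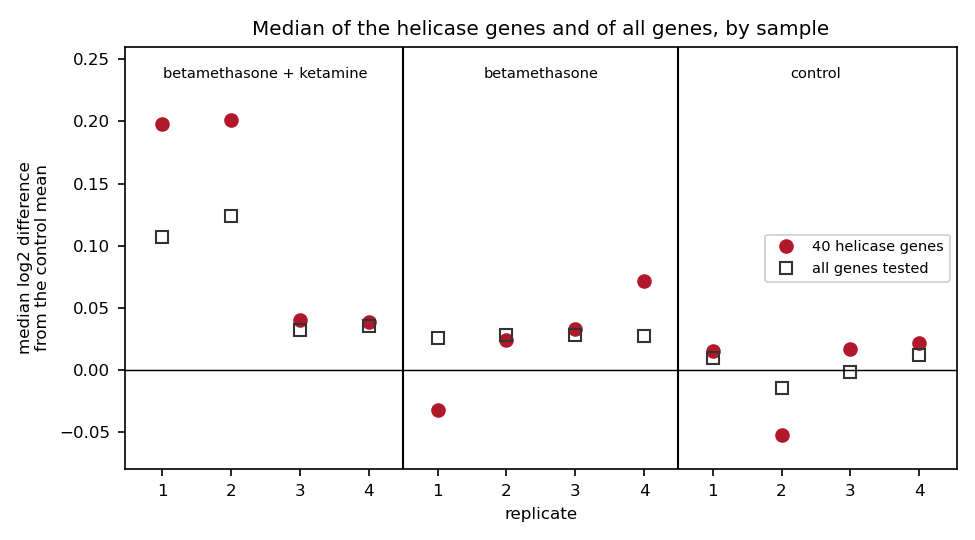
Median log2 difference from the control mean (vertical axis) of the 40 helicase genes (filled circles) and of all genes tested (open squares) in each sample, by group and replicate. Betamethasone-ketamine replicates 1 and 2 stand at 0.20 for the helicases, against 0.04 for replicates 3 and 4.

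Of the helicase genes, 4 had more than 1 probe, and the probe estimates of betamethasone-ketamine minus control differed in sign for 3 of them, Ddx41, Ddx3x and Dhx57. Ddx27, a ribosome-assembly helicase, had overlapping probes on chromosome 3 (rn4, chr3:158185060-158185212 and chr3:158185036-158185188, plus strand) that both span a gap in the genome. They are shown to mark, in capitals, the 36 bases they share.
Ddx27 probe A_42_P546539: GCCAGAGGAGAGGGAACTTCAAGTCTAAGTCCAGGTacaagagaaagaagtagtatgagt
Ddx27 probe A_64_P112776: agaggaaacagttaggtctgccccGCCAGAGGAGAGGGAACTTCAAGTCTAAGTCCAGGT
The first gave -0.08 ± 0.09 (SE) and the second -0.16 ± 0.19 in betamethasone-ketamine minus control, and 0.01 and 0.07 in betamethasone minus control. Their estimates were within the error of each other. In single samples they parted, however: the second probe was 10.67 and 10.67 in betamethasone-ketamine replicates 1 and 2 and 11.26 and 11.16 in replicates 3 and 4, while the first stayed between 10.50 and 10.62. The first probe is the mean of 10 spots, and in betamethasone-ketamine replicates 1 and 2 some or all of them lay in an area of departing spots.

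Ddx41, a splicing helicase also known as an innate sensor of DNA, had 3 probes on chromosome 17, and A_64_P055666 (rn4, chr17:15152335-15152394, plus strand) and A_64_P162173 (chr17:15152341-15152400) nearly coincide. Their first 30 bases are shown, with the start of their shared run of 51 bases in capitals.
Ddx41 probe A_64_P055666: tgcccccagAATTACTATTTTTGTTCTCTT
Ddx41 probe A_64_P162173: caaAATTACTATTTTTGTTCTCTTCCCCAG
Probe A_64_P055666, the one tested for the gene, was 11.24, 11.21, 11.11 and 11.11 in betamethasone-ketamine cortex, 11.29, 11.10, 11.29 and 11.10 in betamethasone cortex, and 11.01, 11.01, 10.78 and 10.74 in control cortex. Its exposed samples were all above control, by 0.29 ± 0.11 (SE) in betamethasone-ketamine cortex, an adjusted p of 0.312 over genes. Probe A_64_P162173 was 10.80 to 11.002 in betamethasone-ketamine cortex, 10.74 to 10.97 in betamethasone cortex and 10.80 to 11.25 in control cortex, and its log2 difference of betamethasone-ketamine minus control was -0.09 ± 0.17. The nearly coinciding probes thus differed in the sign of their estimates, and the difference between them was not tested. The third probe, A_64_P058503 (chr17:15152243-15152302), was 10.70, 10.63, 10.91 and 10.86 in betamethasone-ketamine cortex, 11.12, 10.84, 11.09 and 10.85 in betamethasone cortex, and 9.44, 9.34, 10.34 and 10.36 in control cortex. Its control arrays stood apart from each other by about as much as the groups did. Its log2 difference of betamethasone-ketamine minus control was 0.91 ± 0.23, with an adjusted p of 0.192 when all probes were fitted as separate features.

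Ddx3x, an X-linked helicase of translation initiation, had probes on the minus strand that lie 2148 bases apart. The brighter one (rn4, chrX:21495349-21495408) was 13.61, 13.62, 13.13 and 13.25 in betamethasone-ketamine cortex, 13.06, 13.28, 12.99 and 13.36 in betamethasone cortex, and 13.54, 13.66, 13.49 and 13.53 in control cortex. The other (chrX:21497497-21497556) was 8.90, 9.21, 8.86 and 9.11 in betamethasone-ketamine cortex, 8.94 to 9.32 in betamethasone cortex, and 8.65, 8.40, 8.84 and 8.89 in control cortex. In betamethasone minus control neither probe's samples overlapped, and the estimates were -0.39 and 0.45, of opposite sign. In betamethasone-ketamine minus control they were -0.16 ± 0.14 and 0.33 ± 0.22 (SE), and the samples overlapped for both. The probes of Dhx57 also differed. The one tested for the gene gave 0.22 ± 0.14, and the other, 11.33, 11.33, 11.47 and 11.499 in betamethasone-ketamine cortex, 11.27, 11.43, 11.43 and 11.39 in betamethasone cortex, and 11.71, 11.60, 11.63 and 11.81 in control cortex, gave -0.28 ± 0.11 with no overlap.

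**Figure D5:**
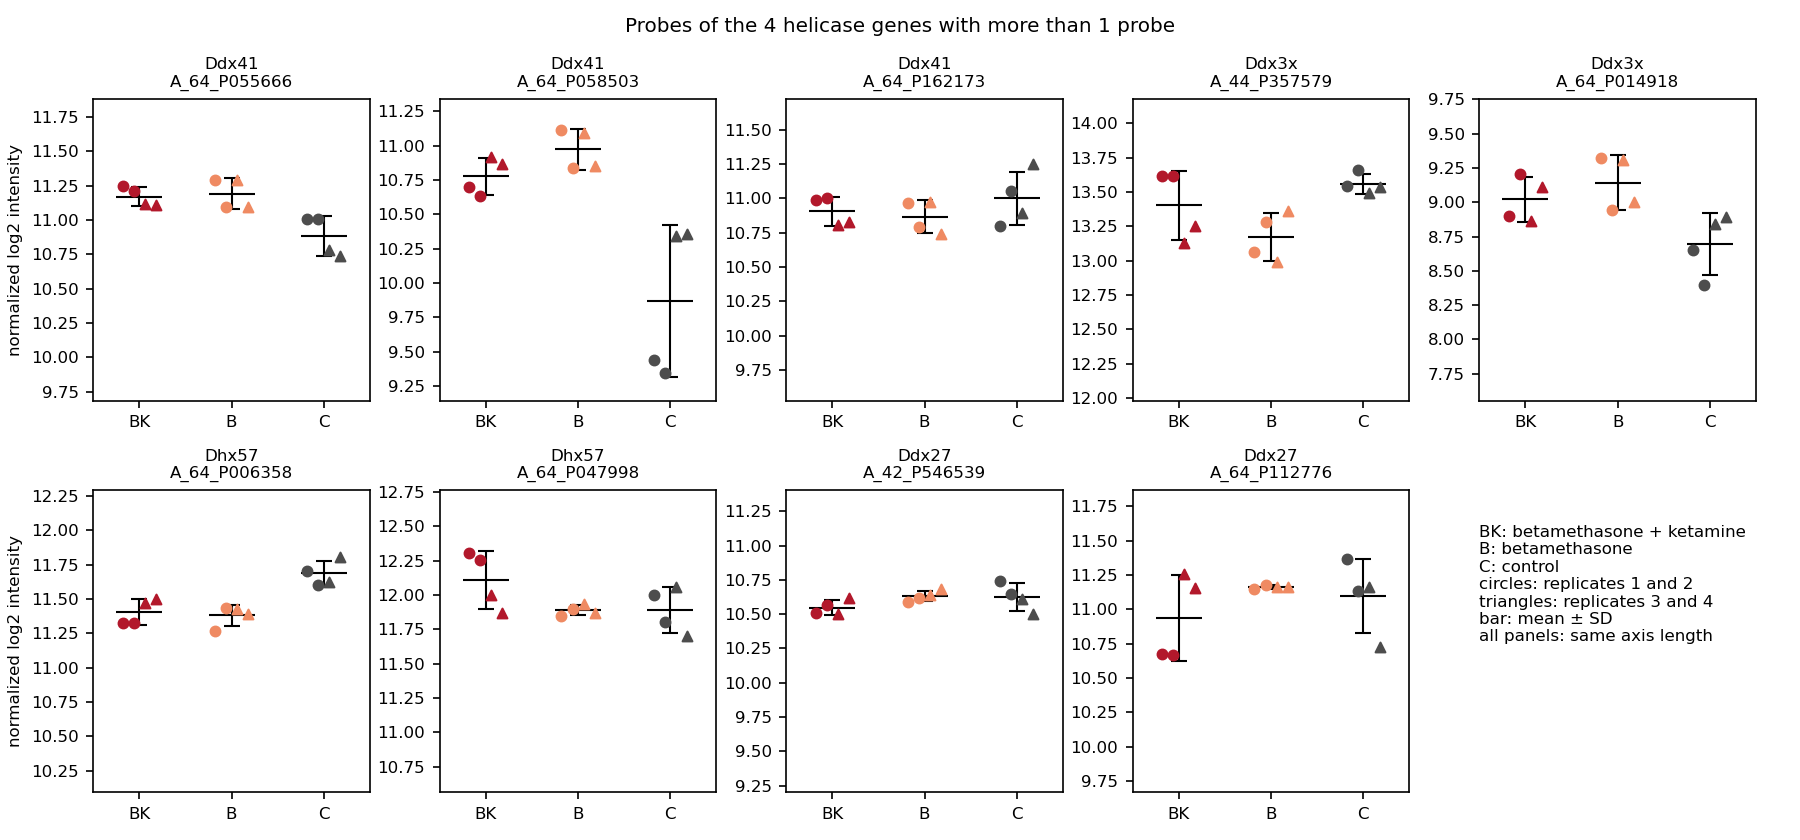
Normalized log2 intensity (vertical axes, all of the same length) of the 9 probes of Ddx41, Ddx3x, Dhx57 and Ddx27 in each sample, with betamethasone-ketamine (BK), betamethasone (B) and control (C) from left to right. Circles are replicates 1 and 2, triangles replicates 3 and 4, and bars the mean ± SD of 4 samples. For Ddx41 the exposed groups lie above control with A_64_P055666 and A_64_P058503 and overlap with it with A_64_P162173.

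Ddx5 and Ddx54, left out of the tests, had values in all samples of the other groups. Ddx5, an abundant splicing and transcription cofactor, was 13.46, 13.28, 12.63 and 12.47 in betamethasone-ketamine cortex, 12.34 and 12.64 in betamethasone replicates 1 and 2, and 12.83, 12.82, 12.82 and 12.78 in control cortex. The control samples lay close together, and the betamethasone-ketamine arrays lay on either side of them. Ddx54, a nuclear ribosome-assembly helicase, was 12.21, 12.02, 11.83 and 11.74 in betamethasone-ketamine cortex, 11.97 and 11.78 in betamethasone replicates 1 and 2, and 12.01, 12.07, 12.09 and 12.26 in control cortex.

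In chosen lists of other genes of the RNA machinery, limma called 0 genes at an adjusted p under 0.05 in all 3 comparisons. Of all genes tested, 0.0911% were called in betamethasone-ketamine minus control and 0.247% in betamethasone minus control. In betamethasone-ketamine minus betamethasone it was 0%. At such shares, 0 calls in lists of this size say nothing about the lists. The lists were 3 of 3 DEAD-box genes with other names, 35 of 37 ribosome biogenesis factors, 36 of 37 spliceosome components, 23 of 29 genes of viral RNA sensing and interferon response, and 28 of 33 genes of the RNA exosome and mRNA decay. At an unadjusted p under 0.05, 9.72% of all genes were higher and 4.35% lower in betamethasone-ketamine minus control. The lists had 4 higher and 3 lower ribosome biogenesis factors, 2 higher and 1 lower spliceosome components, 1 higher and 1 lower interferon-response genes, 3 higher and 6 lower decay genes, and 1 lower DEAD-box gene. Their medians were 0.09 for ribosome biogenesis factors, 0.05 for spliceosome components, -0.005 for interferon-response genes, 0.04 for decay genes and -0.14 for the other DEAD-box genes, beside 0.13 for the helicases and 0.07 for all genes. In betamethasone-ketamine minus betamethasone only 2 genes of these lists reached that unadjusted p, both lower and both in mRNA decay, against 1.89% of all genes higher and 1.33% lower.

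Promoter sequence was looked up for the genes with the largest differences, as the 250 bases before the start of transcription in RefSeq (GRCr8). Betamethasone is an agonist of the glucocorticoid receptor. Of the 45 genes 40 had an entry, including some that were not tested. In all, 4 motifs were searched on both strands: the full glucocorticoid response element, its single arm AGAACA, the E-box CACGTG and the CCAAT box. The full response element was in 0 of 40 helicase promoters and in 1 of 27457 promoters of this length. This arm, which is part of the full element, was in 5 of 40 helicase promoters (12.5%) and in 17.1% of all. The E-box was in 7 of 40 (17.5%), against 5.79% of all, and the CCAAT box in 18 of 40 (45%), against 34.3% of all. Helicase promoters had a median GC content of 57%, against 52% of all promoters. Capitals mark the E-box and the CCAAT box below.
Ddx56 promoter (chr14:85336263-85336512, minus strand): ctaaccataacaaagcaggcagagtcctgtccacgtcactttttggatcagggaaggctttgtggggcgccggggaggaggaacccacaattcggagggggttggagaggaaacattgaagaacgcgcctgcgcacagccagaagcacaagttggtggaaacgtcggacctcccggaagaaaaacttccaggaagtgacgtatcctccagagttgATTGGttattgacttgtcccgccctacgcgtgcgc
Dhx9 promoter (chr13:68189547-68189796, minus strand): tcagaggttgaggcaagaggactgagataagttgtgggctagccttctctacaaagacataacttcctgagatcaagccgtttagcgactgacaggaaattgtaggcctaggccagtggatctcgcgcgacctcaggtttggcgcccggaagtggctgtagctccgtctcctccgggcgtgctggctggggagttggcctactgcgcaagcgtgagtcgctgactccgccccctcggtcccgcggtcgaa
Ddx25 promoter (chr8:42168081-42168330, minus strand): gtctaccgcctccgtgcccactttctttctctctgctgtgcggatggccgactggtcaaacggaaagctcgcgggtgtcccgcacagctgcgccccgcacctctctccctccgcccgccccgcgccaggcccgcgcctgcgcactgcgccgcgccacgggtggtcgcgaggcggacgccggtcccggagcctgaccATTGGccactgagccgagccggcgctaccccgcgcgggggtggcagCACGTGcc
The Ddx56 window holds a CCAAT box on the opposite strand (ATTGG) 35 bases before the start, the Ddx25 window has an E-box 8 bases and a CCAAT box on the opposite strand 54 bases before it, and the Dhx9 window holds none of the 4 motifs. A match in these letters is a description of sequence and not of factor binding.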

How the data were processed

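RNA of 12 samples in 3 groups of 4 was measured on 6 Agilent 2-colour arrays; each channel was treated as its own sample, and the odd replicates were in Cy3. The deposited spot signals and local backgrounds were intensity values, made with version 11.5.1.1 of Agilent's software for the control slide and 11.0.1.1 for the other, per the file headers, while the submitters' processing notes name Agilent Feature Extraction 10.7.3.1. A deposited table gave each sample a ratio, the background-subtracted signal over its column median, as read from its match to the scanner values. In it, control replicates 1 and 2 hold what the scanner files give for control replicates 3 and 4, with 3 and 4 exchanged likewise. It served as an alternative. Probe positions are on rn4.

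Mean signals were corrected with normexp (offset 50), normalized by loess and Aquantile, and averaged per probe without outlier spots. A probe had to be well above background in 3 of 4 samples of a group (21770 probes), and each gene was represented by its brightest such probe, with 3 values per group required. The model, fitted with limma 3.58.1 under R 4.3.3 with statmod 1.5.0, had group means, dye as a term and array as a random block (correlation 0.563), moderated variances, and Benjamini-Hochberg adjustment over 18654 genes and a threshold of 0.05. Of all probes, 18347 were named by accession, 2766 by symbol and 429 by synonym from the RefSeq tables, and 8825 kept the file's name. An area of departing spots was a window of 11 by 11 spots in which over 15% differed by more than 1 log2 unit from the median of the other arrays. The script was tested on simulated data.

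The members, role groups and gene lists were chosen with earlier results of these data known. Named genes are Ddx56, Dhx9, called members, the 10 smallest p-values per comparison, up to 10 non-overlapping members per comparison, multi-probe members and the largest changes in each role. Alternatives covered background, scaling, filter, probe choice, model and left-out samples.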

Additional observations from a re-analysis of the deposited data

Results flagged for a closer look

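Among the helicase genes described individually, 78 sets of 4 samples of 1 gene in 1 group were examined, and 1 held a sample far from the other 3. Dhx30 was 13.81 in betamethasone replicate 4 and 13.92 to 13.94 in betamethasone replicates 1 to 3. For 4 independent values, chance alone gives such a sample in about 1 in 20 sets. Samples of 1 array are not independent, so that rate holds only roughly here.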

How the results depend on the processing

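In betamethasone minus control, where 2 helicase genes and 46 of all genes were called, 0 helicase genes were called with 75th percentile scaling (85 of all genes), with loess and equal array medians (0), with the deposited table (15) or with the samples of an array averaged (3). There was 1 with processed signals and Aquantile (125 of all genes) or without departing areas (78), 4 without the array block (979) and 3 with the replicate number as a block (711). With only the 2 groups compared there were 3 (247). Ddx56 and Dhx9 were chosen in this comparison, so these counts support nothing about the helicases. The same holds for their calls in betamethasone-ketamine minus control, which shares the control samples. In betamethasone-ketamine minus control, where 0 helicase genes and 17 of all genes were called, 2 were called without the filter on dim probes (37 of all genes) or without the dye term (24), 4 without the array block (780), 3 with the replicate block (Dhx36, Dhx9 and Ddx56, with 458 of all genes) and 1 without departing areas (32). Samples of the same number did not deviate together over all genes (correlations -0.134 to 0.0364). These values cannot tell whether animals of the same number were matched, since the labels give no litter and samples of 1 array share part of their deviation. Leaving out samples or arrays gave 0 to 3 calls in betamethasone minus control, 0 to 10 in betamethasone-ketamine minus control and 0 to 8 in betamethasone-ketamine minus betamethasone, and the highest 2 counts came without the array of betamethasone-ketamine replicates 3 and 4 (3102 and 2288 of all genes). A lone array was assumed to vary like the others. The helicase median with loess and equal array medians was 0.15 in betamethasone minus control, 0.0397 in betamethasone-ketamine minus control and -0.13 in betamethasone-ketamine minus betamethasone, where all genes moved to -0.10. With 75th percentile scaling all genes stood at 0.10 in betamethasone minus control.

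Of 1019 values of single genes, 943 kept direction and side of the threshold, 26 lost and 36 gained a call, and 14 turned direction. Ddx3x in betamethasone minus control turned to 0.011 with loess and equal array medians and 0.0316 with the mean of probes. In betamethasone-ketamine minus betamethasone, loess with equal array medians gave -0.15 for Dhx9, -0.21 for Dhx15, -0.0879 for Ddx10, -0.30 for Dhx57 and -0.33 for Ddx3x. In the same comparison Ddx56 was 0.0106 with 75th percentile scaling and 0.00943 with processed signals and Aquantile, which gave 0.00621 for Dhx30. Leaving out samples or arrays gave -0.37 to 0.0213 for Ddx56, -0.00976 to 0.15 for Dhx9, -0.98 to 0.0393 for Dhx58 and -0.0207 to 0.58 for Ddx10. The cause was not tested.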

Other observations

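Beyond the rule for the genes, 2 probes carry a Ddx or Dhx symbol only in the reference table. The Dhx34 probe was 9.91, 10.08, 10.54 and 10.58 in betamethasone-ketamine cortex, 10.56, 10.42 and 9.85 in betamethasone replicates 1 to 3, with no value in replicate 4, and 10.36, 10.34, 10.34 and 10.59 in control cortex. The Ddx3 probe was 8.02 to 8.13 in betamethasone-ketamine cortex, 8.06 to 8.24 in betamethasone cortex and 7.83 to 8.08 in control cortex. The groups overlapped for both probes in all 3 comparisons.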
